A study of Mus musculus with 6 samples.

Results

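The genes described here build and steer the vesicles that carry proteins and lipids between the compartments of a cell: the Rab GTPases and their regulators, the adaptor, COPI and COPII coats, the Arf and Arl GTPases, the sorting nexins, the Vps proteins, and the golgin, TRAPP and exocyst tethers. They were taken by the start of the gene symbol from a table of alternative RNA events, leaving out Ap1b1 and every event in the congenic interval on chromosome 19. The symbols matched 221 events, of which 2 events of Ap1b1 and 3 events of 1 gene in the interval were left out. The remaining 216 events belong to 137 genes, and 215 of these events had a value. The whole table has 13053 events, of which 12999 events in 7766 genes had a value, and the 215 are 1.65% of those 12999.

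Brain total RNA was hybridized to Affymetrix MJAY arrays, which carry probe sets for the alternative paths of an RNA (the junctions and exons used when a segment is included and those used when it is excluded). The animals came from a C57BL/6J (B6) stock congenic for a CAST/Ei segment around Nxf1, the gene of an mRNA export factor, and were homozygous for either Nxf1 B6 (n = 3) or Nxf1 CAST (n = 3). They formed 3 same-sex littermate pairs, 2 female and 1 male, aged 46 days in pair 1, 22 days (Nxf1 B6) and 23 days (Nxf1 CAST) in pair 2 and 23 days in pair 3. The table compares the genotypes to ask whether the Nxf1 allele alters alternative processing across the genome. Besides Nxf1, the CAST homozygotes carry CAST alleles of the linked genes, so an effect of Nxf1 and an effect of a linked CAST allele cannot be told apart.

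Each path has a single pooled intensity per set of arrays, A or B. The table holds no value per animal, so none of the values below has a replicate error or a test, and no difference can be set against the spread between the 3 pairs. Which genotype is which set is not written in it. Set B is likely Nxf1 CAST and set A Nxf1 B6, because the header defines its score as mutant over wild type, the methods define it as CAST over B6, and the score had the sign of set B over set A in 26172 of 26399 paths. A figure legend of the paper words the score as inclusion over exclusion, where the header has exclusion to inclusion. If the legend's wording held for this score, the sets would be the other way round. The value used is the log2 change of the exclusion to inclusion ratio from set A to set B. A value above 0 means relatively more of the exclusion path in set B, and a change is called past the threshold when its absolute value is over 0.5, a ratio change of 1.41-fold. Probe sets differ in brightness for reasons other than RNA amount, so intensities are compared between sets for the same probe set and never between genes. Where 2 intensities of a path are given together, set A comes before set B, and the exclusion path comes before the inclusion path. In bulk brain RNA, fewer cells of a type and less RNA per cell cannot be told apart.

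Vesicle traffic runs in steps that each use a family of these genes. Coat proteins bend a donor membrane and gather cargo (COPII at ER exit sites, COPI at the Golgi, the AP adaptors with clathrin or alone at the Golgi, endosomes and plasma membrane), Arf GTPases recruit several of the coats, and Rab GTPases and their tethers bring the vesicle to the right target. In neurons the same machinery supplies axons, dendrites and synapses, and many of its genes have brain-specific exons.

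Of the 215 events, 15 were past the threshold, a share of 6.98% against 7.31% of all events in the table. The share was near the background, so the count is not a result about trafficking genes. The median absolute change was 0.19 for the trafficking events and 0.18 for all events, and the largest trafficking change was 0.80 against a range over all events from -1.61 to 2.13. Above the 75th percentile of all absolute changes lay 46 of the 215 (21.4%). Nearly all of the large changes had the same sign. Of the 212 trafficking events with a defined exclusion path, 14 had a change above 0.5 (background 4.51%) and 1 had a change below -0.5 (background 2.72%). At any size, 132 changes were above 0 and 80 below 0 (62.3% above 0), against 55.4% above 0 over all events. The median change was 0.06, against 0.03 over all events.

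A change of the ratio can come from either path. Among the 15 events past the threshold, the exclusion path was higher and the inclusion path lower in set B in 12, both paths were higher in 2 (Trappc6a and the cassette exon of Rab34), and the exclusion path was lower and the inclusion path higher in 1 (Golga7b). The exclusion path moved more than the inclusion path in 13 of the 15, and in 136 of the 212 trafficking events. In Arfgap1 and Sec11c the inclusion path moved more. The larger move of the exclusion path was not particular to trafficking genes: it held in 660 of all 909 signed events past the threshold. Of those 909, the exclusion path was higher and the inclusion path lower in set B in 465, and the reverse held in 280. Both paths were higher in 96 and both lower in 63. Over the 212 events the median log2 change from set A to set B was 0.04 for the exclusion path and -0.05 for the inclusion path, against 0.02 and -0.02 over all events.

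**Figure D1:**
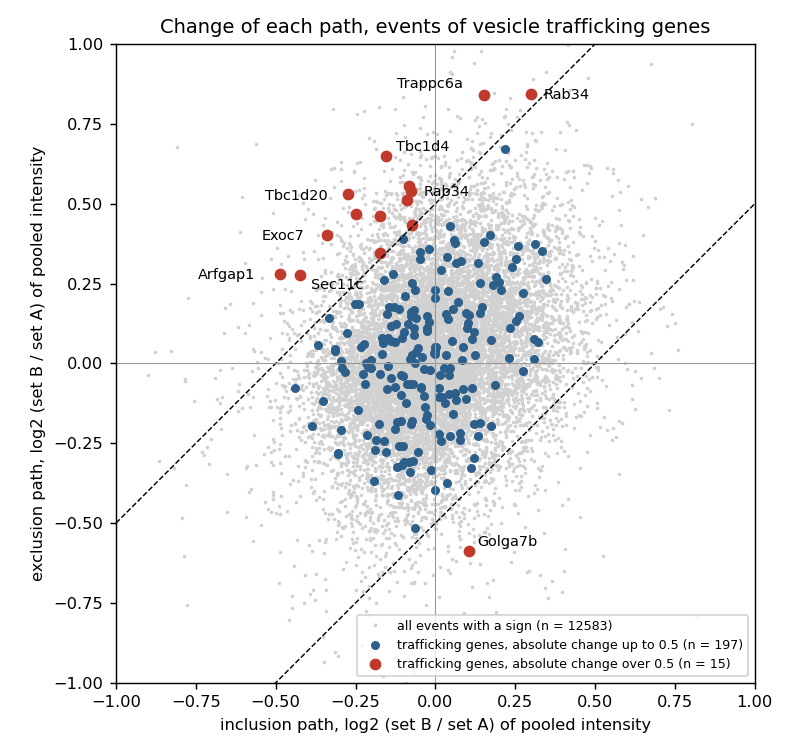
Log2 change from set A to set B of the pooled intensity of the inclusion path (x axis) and the exclusion path (y axis) for the 212 trafficking events with a defined exclusion path (blue, or red where the change of the ratio is over 0.5 in size) over all 12583 such events (grey, of which 15 lie outside the axes). The dashed lines mark a ratio change of 0.5 and -0.5, and 14 of the 15 red points lie beyond the upper line, with Golga7b alone beyond the lower one.

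Dim probe sets gave larger changes in the table as a whole. An intensity under 100 in either path and either set was found in 44 of the 215 trafficking events (20.5%) and 20.8% of all events. Past the threshold were 6 of these 44 and 9 of the other 171, against 10.5% and 6.48% of all events of the same 2 classes. The 6 dim events were those of Tbc1d4, Sec11c, Arl6ip5, Vps13a and Snx24 and the cassette exon of Rab34, and what their low signal adds to the change was not tested.

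Cassette exons, whole exons that are included or skipped, held 83 of the 215 events and 9 of the 15 past the threshold, a share of 10.8% against 8.48% of all cassette exons in the table. Alternative 3′ ends gave 0 of 35 past the threshold, and they had the lowest share among the commoner kinds in the table as a whole (2.78%). The exon length was a multiple of 3, which keeps the reading frame when a coding exon is skipped, in 50 of the 83 trafficking cassette exons (60.2%) and in 53.1% of all cassette exons. Among those 50 exons 4 were past the threshold (8% against 7.54% of all such cassette exons), and among the 33 others 5 were (15.2% against 9.43%). The 4 with a length that is a multiple of 3 were the 186-nt exon of Tbc1d20, the 93-nt exon of Exoc7, the 276-nt exon of Ap3m1 and the 186-nt exon of Rab34. Whether these exons are coding was not checked.

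The 14 genes with an event past the threshold were spread over 12 of 15 roles, and only the Rab GTPases (2 events) and the Rab regulators and effectors (3 events) had more than 1. The roles without such an event were the Arf and Arl GTPases, the ER translocon genes and the Sec14 lipid transfer family. Median absolute changes ran from 0.06 (2 events of Sec14l1) to 0.37 (3 events of genes named for an interaction with Arl6). Among the 7 roles with at least 15 events they ran from 0.12 in the AP adaptor complexes to 0.22 in the Rab GTPases.

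**Figure D2:**
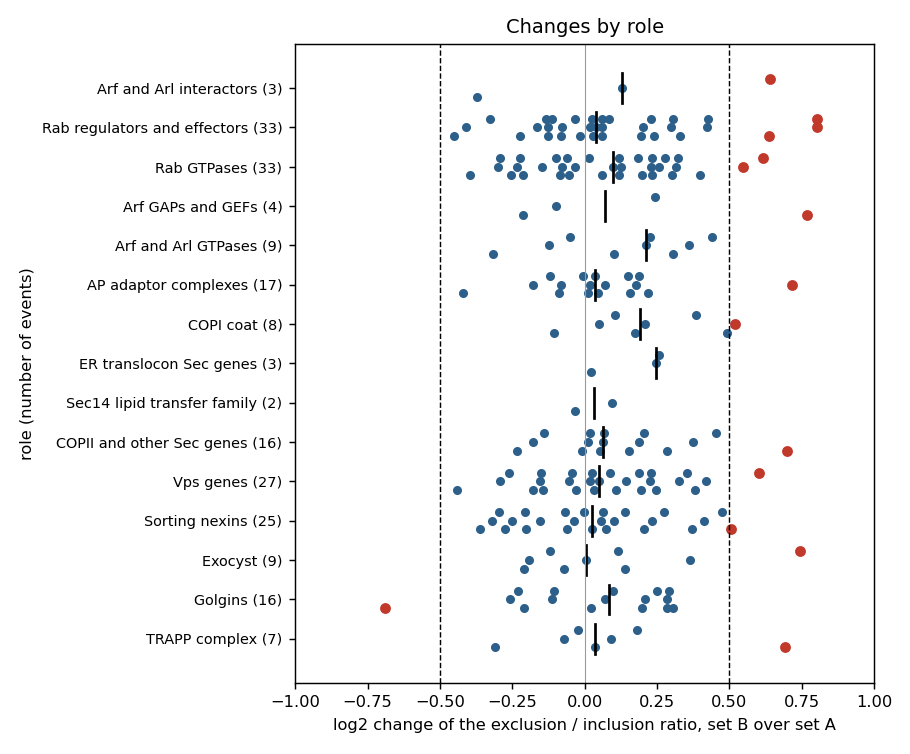
Log2 change of the exclusion to inclusion ratio, set B over set A (x axis), of each trafficking event with a defined exclusion path, by role (y axis, with the number of events). Each point is 1 event, red past 0.5 or -0.5 (dashed lines), and the black bars are medians, which all lie between 0.01 and 0.24.

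Rab GTPases, the membrane switches that recruit tethers and motors to each compartment, had 33 events in 24 genes, 2 of them past the threshold and both in Rab34. Rab34 is a Golgi-associated Rab that takes part in the formation of cilia. At its alternative 3′ splice site of 35 nt (chr11:78004937-78005133) the exclusion path read 130 (set A) and 189 (set B) and the inclusion path 217 and 206, a change of 0.61. At its 186-nt cassette exon (chr11:78001993-78003093) the exclusion path read 73 and 131 and the inclusion path 283 and 348, a change of 0.55. The Rab34 events do not overlap, and Rab34 was the only member gene with more than 1 event past the threshold. At the cassette exon the summed intensity of the 2 paths was higher in set B by 0.43 on the log2 scale and at the 3′ splice site by 0.19.

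The other 31 Rab events lay between -0.40 and 0.40. The ends of that range were a retained intron of Rab4b (722 and 549 in the exclusion path, 161 and 161 in the inclusion path), an endosome recycling Rab, and a 122-nt 3′ splice site of Rab3d (139 and 177, 120 and 116), a Rab of secretory granules. Rab4b had both of its events below 0 (-0.40 at the retained intron and -0.29 at an 81-nt 3′ splice site). Its paralog Rab4a had a single event, a 37-nt 3′ splice site, at 0.23. Whether the 3′ splice sites of Rab4a and Rab4b are the same choice was not tested. Rab6a, listed as Rab6, the Golgi Rab with a pair of mutually exclusive exons of 106 nt each, read 4211 and 4690 in the exclusion path and 674 and 689 in the inclusion path, a change of 0.12. Rab7, the Rab of late endosomes, had 3 events between -0.10 and 0.20, and Rab3a, the main Rab of synaptic vesicles, had an alternative start at 0.32. Other paralogs were measured at unlike kinds of event, so their values cannot be compared as the same choice. Rab5b had 0.10 at an alternative end, Rab5c 0.26 at a 53-nt 3′ splice site, and Rab3c 0.01 at an alternative start.

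Rab regulators and effectors, which regulate Rabs or act on their behalf, had 33 events in 21 genes and the pair of largest changes. Tbc1d20 encodes a GTPase-activating protein of the ER that acts on Rab1 and Rab18. Its 186-nt cassette exon (chr2:152119756-152130702) read 710 (set A) and 1025 (set B) in the exclusion path and 1158 and 959 in the inclusion path, a change of 0.80 that ranked 109 among all events by size. Tbc1d4, a Rab GTPase-activating protein of insulin-regulated glucose transporter traffic, had an alternative start (chr14:101862301-102008439) with 97 and 152 in the exclusion path and 298 and 268 in the inclusion path, also a change of 0.80. Both paths were bright in Tbc1d20, with no intensity under 710, while the Tbc1d4 exclusion path was dim in set A.

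Rabepk, an effector of Rab9 in traffic from endosomes to the trans-Golgi, was the remaining gene of that role past the threshold. Its 158-nt cassette exon (chr2:34646155-34652915) read 170 and 234 in the exclusion path and 623 and 552 in the inclusion path, a change of 0.64, while its alternative end had 0.03. The lowest value of the role was an alternative start of Tbc1d14 at -0.45 (90 and 63, 690 and 660), whose product regulates autophagosome formation. The 3 events of Rabep1, an effector of Rab5, were all below 0 (-0.33 to -0.13). The largest in size, at a 71-nt exon, was dim in every intensity (99 and 87, 89 and 98). A 38-nt 5′ splice site of Rabep1 had a dim inclusion path (70 and 71). The events of Rabgap1, a Rab GTPase-activating protein, ran from -0.22 to 0.42.

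**Figure D3:**
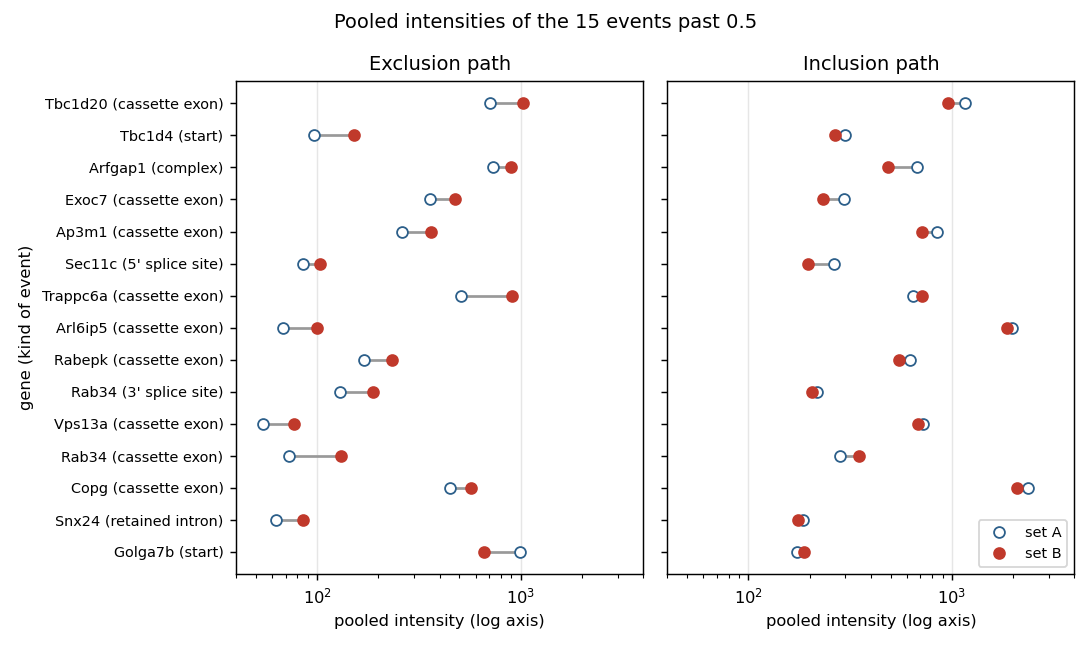
Pooled intensity (log axis) of the exclusion path (left) and the inclusion path (right) in set A (open) and set B (filled) for the 15 trafficking events past the threshold, ordered by the change of the ratio from 0.80 (top) to -0.69 (bottom). The exclusion path is brighter in set B in 14 events and dimmer in Golga7b (990 and 659).

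The Arf side of the system had its largest value in Arfgap1, whose product switches off Arf1 on the Golgi and so takes part in COPI uncoating. Its complex event of 67 nt (chr2:180702034-180702306) read 734 and 892 in the exclusion path and 676 and 483 in the inclusion path, a change of 0.77 in which the inclusion path moved more (-0.48) than the exclusion path (0.28). An overlapping cassette exon of 213 nt had -0.10 (3859 and 4058, 353 and 398), and a separate 30-nt exon had 0.24 (208 and 260, 1182 and 1249). Thus the 3 events of Arfgap1 did not move together, and the large value was in only 1 of them. Arfgap2 had a single event at -0.21, with a dim inclusion path (77 and 80).

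The Arf and Arl GTPases themselves (9 events in 7 genes, counting the Arl2-binding protein Arl2bp) lay between -0.32 and 0.44. Arl15 held both ends. Its 60-nt exon read 231 and 263 in the exclusion path and 658 and 553 in the inclusion path (0.44). Its 151-nt exon had -0.32, with a dim inclusion path (72 and 76). Of the 3 genes named for an interaction with Arl6, Arl6ip5, an ER membrane protein that binds a neuronal glutamate transporter, was past the threshold. Its 218-nt exon (chr6:97160970-97182414) read 68 and 100 in the exclusion path and 1985 and 1874 in the inclusion path, a change of 0.64 carried by a dim exclusion probe set. Arl6ip1 had 0.13 and Arl6ip6 -0.37.

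The COPI coat, which returns proteins from the Golgi to the ER, had 8 events in 3 subunit genes. Of these, 7 were above 0 (87.5%), against 62.3% of the trafficking events and 55.4% of all events with a sign. Copg, the gamma subunit (RefSeq symbol Copg1), had a 53-nt cassette exon (chr6:87838046-87839671) with 450 and 572 in the exclusion path and 2353 and 2087 in the inclusion path, a change of 0.52. Cope, the epsilon subunit, had the event just under the threshold, a 101-nt exon at 0.49 (440 and 576, 1541 and 1436). The other events of Cope were a 69-nt exon at 0.39, with a dim exclusion path (66 and 89), and retained introns at 0.21 and -0.10. Both retained introns lie within the span of the 101-nt exon event, so these 3 events can share probes. The events of Copa, the alpha subunit, had 0.05 and 0.18.

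COPII and the other Sec genes had 16 events in 10 genes and a median absolute change of 0.17. The event past the threshold belonged to no coat gene but to Sec11c, a catalytic subunit of the signal peptidase in the ER. Its 72-nt alternative 5′ splice site read 85 and 103 in the exclusion path and 264 and 197 in the inclusion path (0.70). The paralog Sec11a was measured at other kinds of event, with 0.37 at a 150-nt cassette exon and 0.19 at an alternative end. Sec16a, the scaffold of ER exit sites, had a 60-nt exon just under the threshold at 0.45 (108 and 172, 104 and 121). The cargo-binding COPII subunits Sec24a, Sec24b and Sec24c had 6 events between -0.23 and 0.28, and Sec23b had -0.14. In the ER translocon, Sec61a1 and Sec61a2, the paralogs of the channel subunit, had alternative ends at 0.24 and 0.26, and Sec63 had 0.02. In the separate Sec14 family of lipid transfer proteins, Sec14l1 had 0.09 and -0.03.

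The AP adaptor complexes, which link cargo to clathrin or sort it at the Golgi and endosomes, had 17 events in 13 genes. These counts include Ap1gbp1 (RefSeq symbol Synrg), a gene named for binding AP-1 that does not encode a subunit. The value past the threshold was in Ap3m1, the mu subunit of the AP-3 complex of lysosome-directed traffic. Its 276-nt exon (chr14:21860292-21871382) read 261 and 361 in the exclusion path and 849 and 715 in the inclusion path, a change of 0.72. An overlapping 172-nt exon of Ap3m1, with a dim exclusion path (74 and 74), had 0.22. The neuronal paralog Ap3m2 had -0.42 at a 61-nt 5′ splice site and 0.07 at an alternative end, while both events of Ap3m1 were above 0. Subunits of AP-2, the adaptor of clathrin-mediated endocytosis, had small values: Ap2a1 had 0.04 (676 and 691, 855 and 852) at its 66-nt exon and 0.02 (3456 and 3852, 167 and 184) at a 52-nt 3′ splice site, Ap2m1 0.05, Ap2s1 -0.08 and Ap2b1 -0.12.

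The sorting nexins, which bind phosphoinositides on endosomes, had 26 events in 17 genes, 13 above 0 and 12 below. Snx24 had a retained intron of 777 nt at 0.50, just over the threshold, with 63 and 85 in the exclusion path and 185 and 176 in the inclusion path. Snx32 had a retained intron of 246 nt just under it at 0.48, with bright signals of 4645 and 5123 in the exclusion path and 1287 and 1021 in the inclusion path. Snx14 had -0.16 at an alternative start (434 and 363, 940 and 876) and 0.10 at a 27-nt exon (416 and 424, 466 and 443). Both events of Snx27, a recycling factor of synaptic receptors, were below 0 (-0.28 and -0.32), with a dim exclusion path in each.

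The Vps genes had 28 events in 17 genes and a median absolute change of 0.17. Vps13a, a lipid transfer protein at contacts between organelles, had a 172-nt cassette exon (chr19:16817548-16820150) at 0.60, with the dimmest exclusion path of all trafficking events (54 and 77) beside an inclusion path of 721 and 678. A complex event farther along Vps13a had 0.19. No other Vps event was past the threshold. In the retromer, which retrieves receptors from endosomes, Vps26a had 4 events between -0.16 and 0.25 and Vps26b 0.35. In the ESCRT complexes, which bud vesicles into endosomes, Vps24 (RefSeq symbol Chmp3) had the lowest Vps value at -0.44 (103 and 82, 1619 and 1750). Vps28 had the highest of these complexes at 0.42, with an exclusion path that was dim in set A (86 and 103).

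The exocyst and the TRAPP complex, which tether vesicles to their target, each had 1 event past the threshold. Exoc7 encodes Exo70, the exocyst subunit that docks secretory vesicles at the plasma membrane. Its 93-nt exon (chr11:116157003-116161579) read 360 and 476 in the exclusion path and 295 and 233 in the inclusion path, a change of 0.74 to which both paths contributed (0.40 and -0.34). The retained intron that overlaps it had 0.14 (503 and 500, 534 and 482) and a separate 39-nt exon had -0.07 (188 and 166, 237 and 220), so the large value was in 1 of 3 Exoc7 events. Trappc6a, a subunit of the TRAPP tether of the early secretory pathway, had a 68-nt exon (chr7:20094181-20099770) with 508 and 910 in the exclusion path and 644 and 715 in the inclusion path, a change of 0.69. Its exclusion path moved by 0.84 while the inclusion path was also brighter in set B, and the summed intensity was higher by 0.50. The other 6 TRAPP events lay between -0.31 and 0.18.

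Golgins and their namesakes had 16 events in 6 genes, and 15 of these lay between -0.26 and 0.31. The exception was Golga7b, the only trafficking event below -0.5. Golga7b is not a coiled-coil golgin: it is a small partner of palmitoyltransferases at the Golgi and plasma membrane. Its alternative start (chr19:42322063-42330380) read 990 (set A) and 659 (set B) in the exclusion path and 174 and 187 in the inclusion path, a change of -0.69. The brighter path was thus lower in set B and the dimmer path nearly level, and the summed intensity changed by -0.46 on the log2 scale, the lowest of the 137 genes. Its paralog Golga7 had 3 events between -0.26 and 0.25.

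RefSeq lists 2 transcription starts of Golga7b, 8161 bases apart in GRCm38.p6, and the event in the table spans 8317 bases. The sequences around both starts, 250 bases before to 50 bases after each, are shown because the event is a choice of start, with each match to the GC box motif GGGCGG (searched on both strands) in capitals.
Upstream start, chr19:42247328-42247627, + strand, GRCm38.p6: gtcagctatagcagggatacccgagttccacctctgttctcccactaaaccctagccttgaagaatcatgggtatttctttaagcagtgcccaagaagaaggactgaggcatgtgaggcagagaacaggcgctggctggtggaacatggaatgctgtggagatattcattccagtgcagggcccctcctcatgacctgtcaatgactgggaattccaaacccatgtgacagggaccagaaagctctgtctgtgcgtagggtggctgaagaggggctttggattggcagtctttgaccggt
Downstream start, chr19:42255489-42255788, + strand, GRCm38.p6: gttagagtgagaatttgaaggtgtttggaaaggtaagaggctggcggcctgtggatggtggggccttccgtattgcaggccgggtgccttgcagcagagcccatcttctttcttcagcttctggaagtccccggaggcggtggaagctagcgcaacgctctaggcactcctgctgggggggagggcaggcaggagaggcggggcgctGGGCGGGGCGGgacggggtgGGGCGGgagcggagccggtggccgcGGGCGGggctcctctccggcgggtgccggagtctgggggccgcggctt
The windows differ in composition. The upstream one is 52.3% G and C with 4 CpG dinucleotides and no GC box, and the downstream one is 68.7% G and C with 23 CpG dinucleotides and 4 GC boxes, 2 of which overlap by 1 base. A GC box occurs in 35.7% of the 32851 mouse promoter windows of the same length, and their median GC content is 52.7%. Neither window holds the TATA box motif TATAAA on either strand, which 13.6% of all windows do. The table does not say which start belongs to the exclusion path.

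The signs of the changes within a gene were often mixed. The events of a gene can be of different kinds and many of the changes were small, so a mixed sign carries little meaning. The same split over all genes was not computed. Of the 55 genes with at least 2 signed events, 23 had all changes on the same side of 0 and 32 had changes on both sides, and 82 genes had a single signed event. Of the 4 genes with 4 such events, Rabgap1l had the narrowest range (-0.11 to 0.06) and Cope the widest (-0.10 to 0.49), with Golga2 (-0.23 to 0.07) and Vps26a (-0.16 to 0.25) between them. Overlapping events of a gene can share probes: 40 of the 215 events overlapped another event of the same gene, in 18 clusters, and counting each cluster once left 193 events with 15 past the threshold.

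**Figure D4:**
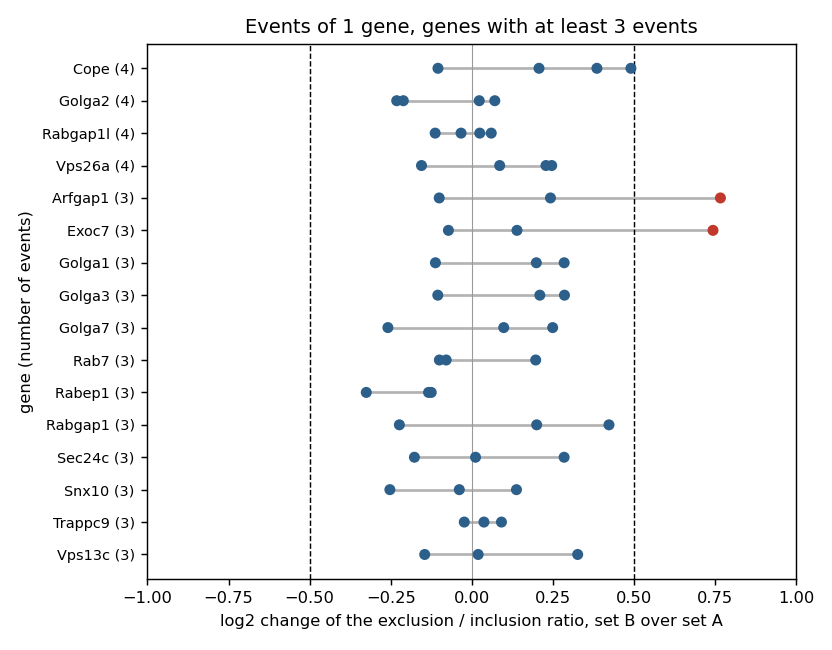
Log2 change of the exclusion to inclusion ratio, set B over set A (x axis), of each event of the 16 genes with at least 3 events (y axis, with the number of events). Points are events, grey lines their range, red points are past 0.5 (dashed lines), and Arfgap1 (0.77) and Exoc7 (0.74) each have 1 event far above their other 2.

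Position and cell content were set beside these values. The 7 trafficking events on chromosome 19 outside the congenic interval included 2 past the threshold, Vps13a at 4.95 Mb from the interval and Golga7b at 30.5 Mb, and Snx32 just under it at 1.56 Mb. The paper's map of chromosome 19 also marks stretches without a settled genotype or heterozygous in part of the samples. Some events counted as outside the interval may lie in such stretches. Over all events 27 of 356 on chromosome 19 outside the interval (7.58%) and 7.29% of those on other chromosomes were past the threshold, and whether linked CAST sequence affects these probes was not tested. Events listed for Exoc5 and Snx17 lay on a chromosome other than that of the RefSeq gene, and neither was past the threshold (0.30 and 0.25 in size). As a check of the tissue, 3 of 8 listed neuron markers were on the array with intensities from 243 to 12087, and their mean log2 change of summed intensity lay between -0.10 and -0.01. The changes were -0.16 to 0.01 for 2 immature neuron markers, -0.16 to 0.12 for 6 astrocyte markers, -0.08 to 0.04 for 5 oligodendrocyte and myelin markers, -0.10 to 0.06 for 2 microglia markers, -0.14 to -0.01 for 2 endothelium markers and 0.18 for the single blood marker. The median was 0.00 for the 137 trafficking genes and 0.01 for all genes.

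A list of 172 other trafficking genes (SNAREs, clathrin and dynamins, ESCRT genes not named Vps, Arf regulators, cargo receptors and Rab cofactors) gave 187 events in 94 genes. Of these 17 (9.09%) were past the threshold, 12 above and 5 below, with a median absolute change of 0.16, against 7.31% and 0.18 over all events. The families of the list were uneven and mostly small: the SNAREs and their regulators had 7 of 43 events past the threshold (16.3%), clathrin, dynamins and endocytosis genes 6 of 63 (9.52%), Arf regulators 1 of 23 (4.35%), cargo receptors 2 of 9, ESCRT genes 1 of 5, and the Rab cofactors, exchange factors and tethers 0 of 44. The 5 largest changes were in Stx8 (0.80), an endosomal SNARE, Stxbp2 (0.76), a partner of syntaxins, Hgs (0.64), an ESCRT-0 subunit, Napg (0.63), a SNARE-disassembly factor, and Itsn1 (0.62), an endocytic scaffold. These 5 were above 0, and the next 3 in size, 1 in Mia3 (-0.62) and 2 in Vamp1 (-0.62 and -0.60), were below 0. Stxbp2 read 232 and 352 in the exclusion path and 736 and 658 in the inclusion path, and Hgs read 427 and 615 and 152 and 140, both above the dim range throughout. The 12 above and 5 below were a less one-sided split than the 14 and 1 of the Rab, coat and tether genes, and this difference was not tested.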

How the data were processed

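Brain RNA of 3 Nxf1 B6 and 3 Nxf1 CAST littermates was profiled on splicing arrays, and per the labels processing used Affymetrix Power Tools (version not given in the sources used here). The authors deposited a table of 26514 paths with whole-number intensities on a linear scale, pooled per set (43 to 13185), plus their own comparison: a log2 separation score and q-values for a paired and a standard analysis. Only the sign of the deposited log2 score was used, to orient the sets. Background correction and the pooling rule are not given in the sources used here, and the number of arrays limits the precision.

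Rows of the same name, gene and strand at overlapping positions were taken as an event (13053 events, 13002 names), and its exclusion path gave log2 of the exclusion to inclusion ratio in set B over set A; without such a path, the path of largest change gave an unsigned size (3 trafficking events). The number in an event name was read as segment length, since 93.8% of 1062 retained introns span it plus 2 bases. Pooled values allow no limma fit or other test. Named were all events past 0.5, the largest of each role, the 3 just under 0.5, all events of a few genes of interest and the 5 largest of the other list; further events were named after their values were seen. The members, roles and lists were chosen with earlier results of these data known. Symbols were matched to RefSeq for 131 of 137 genes directly and 5 by synonym; the genome build of the positions is not given in the sources used here, and only 16 of 214 events lie inside their gene in GRCm38, so positions are the table's own. Alternatives were a dim filter (all 4 intensities at least 100), 50 added to each intensity, centring on the median, thresholds of 0.3 and 1, the path of largest change and counting genes; 2 more were added after seeing the data. The calculation (Python, with pandas 2.3.3) recovered 100% of the changed events in simulated data made from the 12583 signed events. That figure is a check of the arithmetic, and the accuracy of calls on the pooled intensities was not tested.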

Additional observations from a re-analysis of the deposited data

How the results depend on the processing

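With 50 added to every intensity, 9 trafficking events were past 0.5, 8 above and 1 below, in 7 roles; the share was then above that of all events (4.19% against 3.17%), where the unaltered intensities put it below (6.98% against 7.31%); the median absolute change was 0.144 (0.143 over all events), and the other trafficking genes had 7 events and a median of 0.129. The events that dropped to or under 0.5 were those of Arl6ip5, Copg, Rab34 (both), Snx24 and Vps13a. Requiring all 4 intensities to be at least 100 also left 9, 8 of them above 0, and all 9 were among the 15 (5.26% of 171 events, against 6.48% of all). A threshold of 0.3 gave 52 events (24.2%, against 26% of all), 38 above and 13 below, and 44 in the other list. A threshold of 1 gave 0 in every count (0.223% of all events). Taking each gene by its largest event gave a median of 0.234 (0.235 over all genes; 0.245 in the other list) and 14 of 137 genes past 0.5 (10.2%, against 11.7%). Subtracting the median change of all events (0.03) left 13, without Copg and Snx24. The path of largest absolute change kept 15, and by its rule it can add events past 0.5 but cannot remove any. Of the alternatives added after seeing the data, counting overlapping events once kept 15, and no cluster held more than 1 of them. Leaving out the Exoc5 and Snx17 events on another chromosome also kept 15, which was fixed beforehand because neither was past 0.5. No event past 0.5 changed sign under any of these, while the small change at the 52-nt splice site of Ap2a1 went from 0.02 to -0.02 with the median subtracted. No paired analysis was possible because the table holds values pooled per set, and leaving out a replicate could not be run for the same reason.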
